A study of Mus musculus with 9 samples.

Results

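The genes described here are 10 genes of Toll-like receptor and p38 signalling in mouse mammary tumor cells: the receptors Tlr2, Tlr3 and Tlr6, the co-receptors Cd14 and Ly96, the adaptor Myd88, the kinase-like Irak2, the cytosolic sensor Nod1, the p38 isoform Mapk11 and the p38 kinase Map2k6. They were chosen by gene symbol with the levels of these same arrays already known, so that their levels are given as a description with no test and no p-value. The choice set no threshold. All 10 have a probe named for them, among 12148 genes with such a probe, and all 10 passed the filter on dim probes, which left 10021 genes. Together they have 17 named probes. Of these, 11 were detected on all 9 arrays, where detected means a detection p-value, the chance of such a signal among the negative control beads of that array, under 0.05.

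Illumina bead arrays measured RNA of tumor cells from 4T1, 4T07 and 67NR tumors, with 3 arrays per line. The lines come from the same spontaneous mammary tumor of a BALB/cfC3H mouse. They serve as models of different metastatic ability, with 4T1 the most and 67NR the least metastatic. All 3 groups were treated alike: 500000 untreated cells of a line were placed in a mammary fat pad of a female Balb/c host of the Ub-GFP strain, which carries GFP in its own cells, and tumors were taken after 2 to 4 weeks at a mean diameter of 10 mm. Cells negative for GFP and CD45 were then sorted, a gate that leaves out leukocytes and host cells that bear GFP, and total RNA was isolated and labeled with biotin. Each group is a single cell line, so that a difference between groups is a difference between 2 lines and the tumors they formed. The sources used here do not say whether each replicate came from its own mouse, so that errors and p-values measure the spread between arrays, which may be technical. Levels are normalized log2 intensities, and a difference of 1 on this scale is 2-fold. Levels of different genes were not ranked against each other, since probes differ in brightness. Different probes met only in the choice of a gene's brightest probe, in sums over markers and in the bounds explained below.

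Toll-like receptors are membrane proteins that recognize microbial molecules and molecules released by damaged cells. TLR2 pairs with TLR1 or TLR6 at the cell surface to bind lipopeptides, TLR3 binds double-stranded RNA in endosomes, and TLR4 binds lipopolysaccharide with the help of CD14 and of MD-2, the product of Ly96. All but TLR3 signal through the adaptor MYD88, which assembles IRAK kinases and the ubiquitin ligase TRAF6 and so activates the kinase TAK1. From there NF-κB is released into the nucleus and the MAP kinase kinases MKK3 and MKK6 (Map2k3 and Map2k6) phosphorylate p38, whose isoforms are α (Mapk14), β (Mapk11), γ (Mapk12) and δ (Mapk13). NOD1 sits in the cytosol, binds fragments of bacterial cell wall and joins the same route through RIPK2. These genes are best known in macrophages and dendritic cells, but epithelial and tumor cells also use them.

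The arrays detected 17091 to 17566 probes in 4T1, 16604 to 17282 in 4T07 and 16025 to 16990 in 67NR. Levels correlated at 0.983 to 0.992 between arrays of a line and at 0.835 to 0.942 between lines. On 4T1 replicate 3, 15 of 104 other genes of the pathway (14.4%) lay at least 1 below both other 4T1 arrays, against 0.489% of all genes tested, a limit chosen after the values were seen. The same held for Tlr2 alone among the members, and on each of the other arrays for at most 4 of the 104. The epithelial markers that the labelled cells should carry had a summed linear intensity of 30400 to 37000 on the 4T1 arrays, 4940 to 8020 on the 4T07 arrays and 184 to 205 on the 67NR arrays, where Krt18, Krt19 and Krt14 were detected on no array. Krt8 was detected on all 9 arrays, with mean levels of 13.67 in 4T1, 12.22 in 4T07 and 5.87 in 67NR, so that most of the defining markers of a mammary epithelial cell were absent or dim in 67NR. Several members are also genes of myeloid cells, and the 22 leukocyte markers (14 with a named probe, 9 tested) summed to 541 to 584 in 4T1, 574 to 828 in 4T07 and 1220 to 2770 in 67NR. The macrophage markers Adgre1 and Cd163 were detected on no array. Csf1r and Mrc1 were detected on all 3 arrays of 67NR and on none of 4T1, and in 4T07 on 1 and 0 arrays. Tyrobp was detected on 2 arrays of 67NR and on none of the other lines. Lyz2 was detected on all 9, with mean levels of 6.36 in 4T1, 6.27 in 4T07 and 8.84 in 67NR. Other leukocyte markers went otherwise. Cd52 was detected on 3 arrays of 4T1, 1 of 4T07 and 2 of 67NR, and Cd3e on 2 arrays of 4T07 alone. Fcgr3 had mean levels of 5.24 in 4T1, 5.01 in 4T07 and 5.19 in 67NR. Tests of genes other than the members came from limma, fitted over all 10021 genes and 9 arrays with p-values adjusted by Benjamini-Hochberg and called under 0.05. Of the 9 leukocyte markers, 6 had lower levels in 4T1 than in 67NR and 5 in 4T07 than in 67NR. Between 4T1 and 4T07 limma called 0, with 0 also at an unadjusted p under 0.05, and the unpaired test that the study's methods name in general (the methods' unpaired test) called 1 lower in 4T1. The fibroblast and pericyte markers (8 of 14 tested) summed to 1180 to 1360 in 4T1, 3000 to 4410 in 4T07 and 2630 to 3570 in 67NR. By limma, 2 of the 8 were higher and 4 lower in 4T1 than in 67NR. Acta2, Mcam and Col1a1 had their highest mean in 4T1, and Dcn, Pdgfra, Lum and Cspg4 their lowest. The endothelial markers (4 of 10 tested) summed to 661 to 737 in 4T1, 179 to 237 in 4T07 and 200 to 220 in 67NR. Of these, Eng was highest in 4T1, with mean levels of 9.19 there, 6.49 in 4T07 and 6.48 in 67NR. Kdr and Esam were lowest in 4T1, Tie1 lay between the other lines, and Pecam1, Vwf and Cldn5 were detected on no 4T1 array. Hba-a1, the only erythroid marker with a named probe, had 25.3 to 26.9 in 4T1, 21.9 to 28.7 in 4T07 and 198 to 350 in 67NR. The part of such cells in the levels of the members was not tested, and in RNA of sorted cells a smaller number of cells of a type and less RNA per cell cannot be told apart.

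On average 7 of the 10 members were highest in 4T07 (Tlr2, Tlr6, Myd88, Ly96, Cd14, Irak2 and Nod1), 2 in 4T1 (Tlr3 and Mapk11) and 1 in 67NR (Map2k6), while 27.6% of all genes tested were highest in 4T07, 30.6% in 4T1 and 41.8% in 67NR. The lowest mean lay in 67NR for 7 members and in 4T1 for 3 (Cd14, Irak2 and Map2k6). On average 5 members, Tlr2, Tlr6, Myd88, Ly96 and Nod1, were thus both highest in 4T07 and lowest in 67NR. For each of these 5 the arrays of 4T1 and 67NR overlapped, so which of the lines was lowest is not settled. The share of all genes lowest in a line was not counted, so nothing is read from these numbers. For 4 members, Tlr2, Ly96, Irak2 and Nod1, every 4T07 array lay above every array of the other lines, as was the case for 10.3% of all genes. The median difference of the members was 0.22 for 4T1 against 67NR, 0.67 for 4T07 against 67NR and -0.67 for 4T1 against 4T07, beside medians over all genes of -0.05, -0.05 and -0.01. These 3 comparisons share arrays and are not independent of each other.

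**Figure D1:**
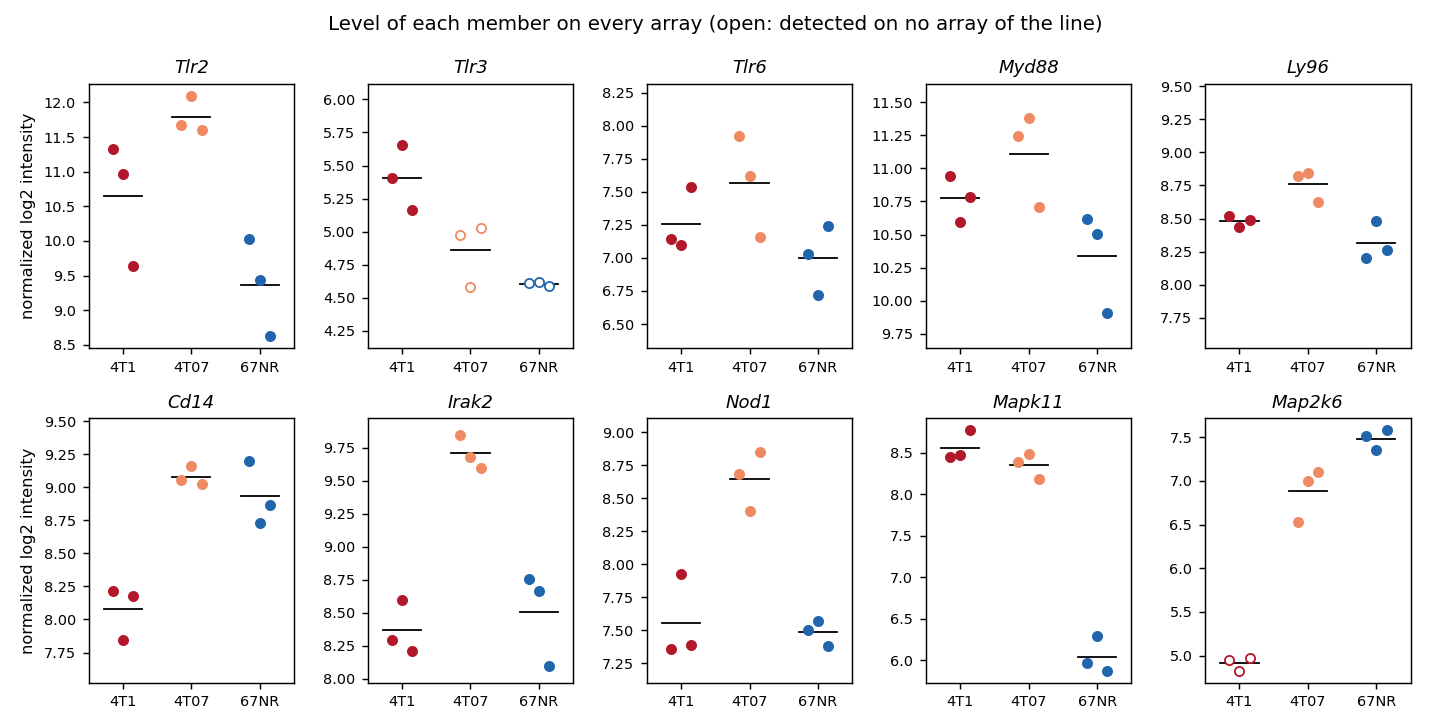
Normalized log2 intensity of the 10 members on each array (points) with the mean of each line (lines), for 4T1, 4T07 and 67NR from left to right; each panel has its own axis and open points mark a line in which the probe was detected on no array. Tlr2, Irak2 and Nod1 stand highest in 4T07, Mapk11 is high in 4T1 and 4T07, and Map2k6 is at background in 4T1.

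The arrays of 4T1 and 67NR did not overlap for 4 members, of which 2 were higher in 4T1 (Tlr3 and Mapk11) and 2 lower (Cd14 and Map2k6), against 58.7% of all genes (27.4% higher and 31.3% lower). Between 4T07 and 67NR, 7 members did not overlap, 6 of them higher in 4T07 (Tlr2, Myd88, Ly96, Irak2, Nod1 and Mapk11) and 1 lower (Map2k6), against 53.4% of all genes (25.5% higher and 28% lower). Between 4T1 and 4T07 it was again 7, with 1 higher in 4T1 (Tlr3) and 6 lower (Tlr2, Ly96, Cd14, Irak2, Nod1 and Map2k6), against 44.9% of all genes (21.7% higher and 23.3% lower). Because the members were chosen on these levels, nothing is read from these counts.

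**Figure D2:**
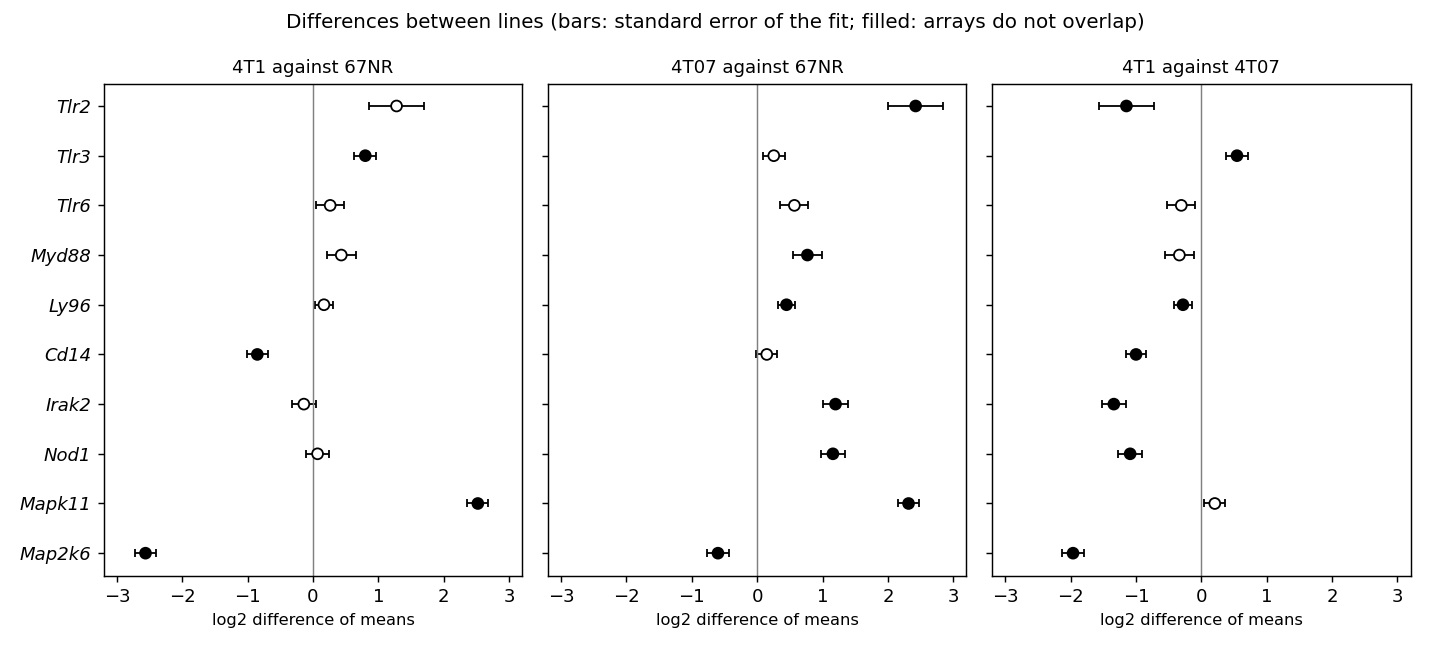
Differences of line means on the log2 scale for each member (points) with the standard error of the fit over 9 arrays (bars), in panels for 4T1 against 67NR, for 4T07 against 67NR and for 4T1 against 4T07; filled points are differences whose arrays do not overlap. Mapk11 has the highest difference from 67NR in 4T1 (2.52) and Tlr2 in 4T07 (2.42), and the points of Map2k6 in 4T1 and of Tlr3 in the other lines rest on a probe not detected there, so that only the bounds given in the text hold for them.

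Among the Toll-like receptors that are members, Tlr2, the lipopeptide receptor, differed most between the lines. Tlr2 had levels of 11.33, 10.96 and 9.63 on the 4T1 arrays, 11.67, 12.10 and 11.60 on the 4T07 arrays and 10.03, 9.43 and 8.63 on the 67NR arrays. The 4T07 arrays lay close together and above all others, whereas 4T1 replicate 3 fell among the 67NR arrays. The means were 10.64 ± 0.89 in 4T1, 11.79 ± 0.27 in 4T07 and 9.36 ± 0.71 in 67NR (SD, n = 3 each). The log2 difference was 1.28 for 4T1 against 67NR, 2.42 for 4T07 against 67NR, which is 5.37-fold, and -1.15 for 4T1 against 4T07 (SE 0.42 each). Without 4T1 replicate 3, the first was 1.79 and the last -0.64.

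Tlr3, the endosomal receptor for double-stranded RNA, was dim throughout. Its levels were 5.41, 5.66 and 5.16 in 4T1, 4.98, 4.58 and 5.03 in 4T07 and 4.61, 4.62 and 4.59 in 67NR. The probe was detected on the 3 arrays of 4T1 and on no array of the other lines, so that Tlr3 passed the filter only through the line in which it is high. In such a case only a bound can be given, the mean of the bright line against, on each array of the dim line, the higher of the probe's own signal and the dimmest detected signal. The size of every bound rests on the background correction. No p-value is given beside a bound, since a gene with a bound passed the filter through the lines in which it is high. Such genes other than the members still count among the calls of the lists. Tlr3 was at least 1.2-fold higher in 4T1 than in 67NR and at least 1.25-fold higher in 4T1 than in 4T07.

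Tlr6, the partner of TLR2 for diacylated lipopeptides, varied little. It measured 7.15, 7.10 and 7.53 in 4T1, 7.92, 7.62 and 7.16 in 4T07 and 7.03, 6.72 and 7.24 in 67NR. The arrays of the 3 lines overlapped, and its largest difference was 0.57 (SE 0.21), for 4T07 against 67NR. A dimmer probe of Tlr6 gave 0.18 for the same difference.

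The promoters of Tlr2 and Tlr3 are shown because they are the only members' promoters with a match to the κB motif, the letters bound by NF-κB. The sequences are those of RefSeq (GRCm38.p6), 250 bases before to 50 after a transcription start, read on the gene's strand from 5′ to 3′. Capitals mark GGGNNTTNCC, searched on both strands, which 4.79% of 32851 promoters of that length hold. In Tlr2 (chr3:83841559-83841858, minus strand) the match begins at position -172 from that start, and in Tlr3 (chr8:45410331-45410630, minus strand) at -211. On the minus strand the annotated genes begin at 83841824 (Tlr2) and 45411075 (Tlr3). The starts used here and both matches thus lie inside the annotated genes.
Tlr2: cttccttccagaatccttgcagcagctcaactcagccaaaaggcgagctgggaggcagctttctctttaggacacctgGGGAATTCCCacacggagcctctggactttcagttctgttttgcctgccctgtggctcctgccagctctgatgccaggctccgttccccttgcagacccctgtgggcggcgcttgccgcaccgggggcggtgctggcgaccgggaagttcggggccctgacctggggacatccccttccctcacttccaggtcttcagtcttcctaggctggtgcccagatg
Tlr3: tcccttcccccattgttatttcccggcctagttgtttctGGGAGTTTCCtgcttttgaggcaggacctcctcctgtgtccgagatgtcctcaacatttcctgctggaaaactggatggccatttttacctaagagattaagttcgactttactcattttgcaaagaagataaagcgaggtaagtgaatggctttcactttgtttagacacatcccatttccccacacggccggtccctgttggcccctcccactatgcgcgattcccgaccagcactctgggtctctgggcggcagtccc
A match of letters is a description of the window and does not show that a factor was bound there. The line in which the gene is highest was 4T07 for Tlr2 and 4T1 for Tlr3.

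The co-receptors of TLR4 took different courses. Cd14, which hands lipopolysaccharide to the receptor, had levels of 8.21, 7.84 and 8.18 in 4T1, 9.05, 9.16 and 9.02 in 4T07 and 9.20, 8.73 and 8.87 in 67NR. Every 4T1 array lay below every array of the other lines, which overlapped each other. The difference was -0.85 for 4T1 against 67NR, 0.15 for 4T07 against 67NR and -1.0 for 4T1 against 4T07 (SE 0.16 each), so that the level in 4T1 was 0.5 of that in 4T07. The summed leukocyte markers, 541 to 584 in 4T1 and 574 to 828 in 4T07, overlapped, and their part in the level of Cd14 was not tested.

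Ly96, whose product MD-2 binds lipopolysaccharide on TLR4, differed by less. It had 8.52, 8.44 and 8.49 in 4T1, 8.82, 8.84 and 8.62 in 4T07 and 8.20, 8.48 and 8.27 in 67NR. The 4T07 arrays lay above all others by a small margin, with 0.45 for 4T07 against 67NR and -0.28 for 4T1 against 4T07 (SE 0.13 each). The arrays of 4T1 and 67NR overlapped (difference 0.17).

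Myd88, the adaptor shared by nearly all Toll-like receptors, had levels of 10.94, 10.59 and 10.78 in 4T1, 11.25, 11.38 and 10.70 in 4T07 and 10.61, 10.50 and 9.90 in 67NR. The 4T07 arrays stood above those of 67NR, and the 4T1 arrays overlapped both. The difference was 0.43 for 4T1 against 67NR, 0.77 for 4T07 against 67NR and -0.34 for 4T1 against 4T07 (SE 0.22 each). A dimmer probe gave 0.64, 0.50 and 0.14, so that for Myd88 the probes disagreed on the direction between 4T1 and 4T07.

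Irak2, which carries the signal from MYD88 to TRAF6, was highest in 4T07. It measured 8.30, 8.60 and 8.21 in 4T1, 9.84, 9.68 and 9.60 in 4T07 and 8.76, 8.67 and 8.10 in 67NR. The lowest 4T07 array stood well above the highest array of the other lines, which overlapped each other. The difference was 1.20 for 4T07 against 67NR, or 2.3-fold, and -1.34 for 4T1 against 4T07 (SE 0.19 each). For 4T1 against 67NR it was -0.14, which turned to 0.01 with median centring and to 0.19 with the mean of all kept probes. A second bright probe gave 1.07 and -1.11 for the differences that involve 4T07. The dimmest of the 3 Irak2 probes was detected on 2 arrays of 4T1, 2 of 4T07 and none of 67NR.

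The promoters of Myd88 and Irak2 are shown as those of the signalling members with a single promoter window that were highest in 4T07. In Myd88 (chr9:119339969-119340268, minus strand) the capitals mark a match to the interferon-stimulated response element, TTTCNNTTTC on either strand, at position -40. That motif is held by 3.44% of the 32851 promoters. The window of Irak2 (chr6:113638217-113638516, plus strand) has no match to it, to the κB motif or to the AP-1 motif TGANTCA, which 7.81% of promoters hold, and so no capitals.
Myd88: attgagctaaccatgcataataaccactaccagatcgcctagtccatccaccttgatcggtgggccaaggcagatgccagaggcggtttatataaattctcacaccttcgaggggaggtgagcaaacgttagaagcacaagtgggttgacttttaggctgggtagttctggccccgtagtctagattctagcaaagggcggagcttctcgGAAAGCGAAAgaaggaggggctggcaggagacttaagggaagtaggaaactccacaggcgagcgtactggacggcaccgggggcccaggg
Irak2: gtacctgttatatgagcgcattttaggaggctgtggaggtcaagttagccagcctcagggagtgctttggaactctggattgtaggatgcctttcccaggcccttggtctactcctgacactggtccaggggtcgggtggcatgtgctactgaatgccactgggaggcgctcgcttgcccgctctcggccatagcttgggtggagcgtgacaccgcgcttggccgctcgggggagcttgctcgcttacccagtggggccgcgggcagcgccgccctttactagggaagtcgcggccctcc
In all, 8 of the 10 members had 12 such windows, and Ly96 and Cd14 had none. The response element was also matched in a window of Tlr6 and the AP-1 motif in a window of Map2k6. GC boxes (GGGCGG on either strand) were found in 7 of the 12 windows, against 35.7% of all promoters, and Mapk11 has 4 of them in its window.

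Nod1, the cytosolic sensor of bacterial cell wall fragments, was highest in 4T07 as Irak2 was, but its lowest mean lay in 67NR. Its levels were 7.36, 7.92 and 7.39 in 4T1, 8.68, 8.41 and 8.85 in 4T07 and 7.51, 7.57 and 7.38 in 67NR. Every 4T07 array lay above every other array, and 4T1 and 67NR overlapped. The difference was 1.16 for 4T07 against 67NR, or 2.23-fold, -1.09 for 4T1 against 4T07 and 0.07 for 4T1 against 67NR (SE 0.18 each). The last was -0.11 without 4T1 replicate 2.

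The members of the p38 branch differed between 4T1 and 67NR in opposite directions. Mapk11, which encodes p38β, had levels of 8.44, 8.48 and 8.77 in 4T1, 8.39, 8.49 and 8.19 in 4T07 and 5.97, 6.29 and 5.87 in 67NR. All 4T1 and 4T07 arrays lay far above those of 67NR and overlapped each other. The difference was 2.52 for 4T1 against 67NR (5.74-fold), 2.32 for 4T07 against 67NR (4.98-fold) and 0.21 for 4T1 against 4T07 (SE 0.16 each). A dim second probe, detected on 1 array of 4T1, 2 of 4T07 and none of 67NR, was too near background to give a fold. In the authors' deposited values, whose background settings are not given, the same differences were 1.41 for 4T1 and 1.27 for 4T07.

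Map2k6 encodes MKK6, the kinase that phosphorylates p38. It had levels of 4.95, 4.83 and 4.98 in 4T1, 6.53, 7.0 and 7.11 in 4T07 and 7.51, 7.35 and 7.58 in 67NR. The 3 lines did not overlap, and the probe was detected on no 4T1 array and on all arrays of the others. Map2k6 was at least 5.37-fold lower in 4T1 than in 67NR and at least 3.55-fold lower in 4T1 than in 4T07, and its difference was -0.60 (SE 0.16) for 4T07 against 67NR. The other Map2k6 probes gave differences of -1.05 and -1.03 for 4T07 against 67NR, and neither was detected on a 4T1 array. With 4T1 at its background signal, the measured difference from 67NR was -1.08 in the authors' deposited values and -1.20 without background correction, so that the size of the bound rests on the background correction.

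The rest of the p38 cascade was measured in 27 genes. By limma, 7 were higher and 10 lower in 4T1 than in 67NR, 5 higher and 6 lower in 4T07 than in 67NR, and 3 higher and 7 lower in 4T1 than in 4T07. In the same order, the methods' unpaired test called 6 higher and 6 lower, 3 higher and 5 lower, and 1 higher and 0 lower. Of all genes tested, 49.8% were called for 4T1 against 67NR (23.2% higher and 26.6% lower), 45.3% for 4T07 against 67NR (21.9% higher and 23.4% lower) and 29.8% for 4T1 against 4T07 (14% higher and 15.8% lower), which is the background for the lists. The p38γ gene Mapk12, the neighbor of Mapk11 on chromosome 15, had 8.59, 8.87 and 8.63 in 4T1, 8.33, 8.44 and 8.59 in 4T07 and 4.53, 4.96 and 4.91 in 67NR, where its probe was detected on no array. It was at least 11.7-fold higher in 4T1 and at least 9.92-fold higher in 4T07 than in 67NR. Both of its other probes were also higher in 4T1 and 4T07. Mapk12 thus showed the same order of lines as Mapk11.

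The remaining isoforms went otherwise. Mapk13, encoding p38δ, was lower in 4T1 than in 67NR by a difference of -1.43 (adjusted p = 7.91e-06) and in 4T07 by -1.97 (adjusted p = 5.68e-07, limma). Mapk14, encoding the widely used p38α, had means of 9.34 in 4T1, 9.61 in 4T07 and 9.53 in 67NR and passed the test in no comparison, with differences between -0.27 and 0.08 (SE 0.15). Among the upstream kinases, Map2k3, the other main p38 kinase, likewise had means of 11.81, 12.06 and 11.96 in 4T1, 4T07 and 67NR, and Map2k4 had 10.14, 10.08 and 10.36, and neither passed in any comparison. Of the MAP kinase kinases for p38, Map2k6 alone was thus detected in some lines and not in others.

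**Figure D3:**
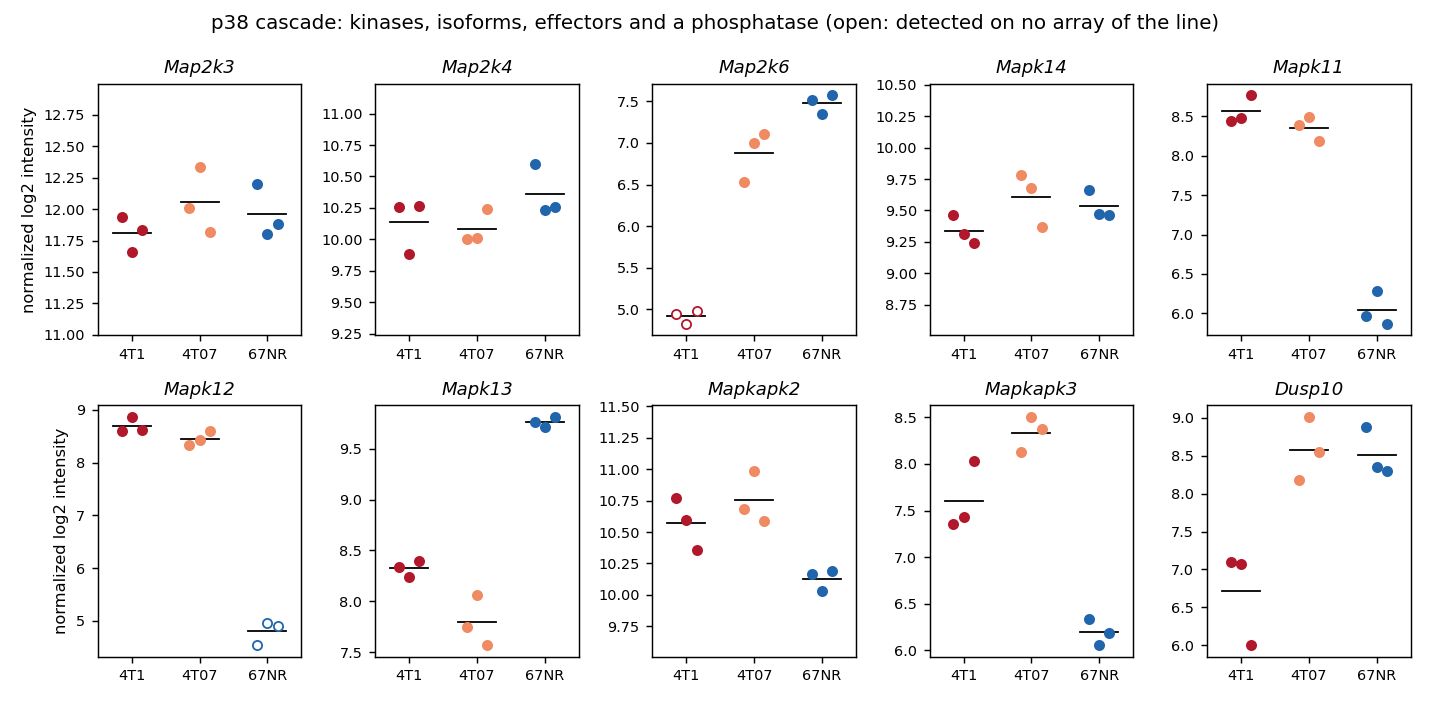
Normalized log2 intensity on each array (points) and line means (lines) of p38 kinases, isoforms, effectors and the phosphatase gene Dusp10 in 4T1, 4T07 and 67NR; each panel has its own axis and open points mark a line with no detected array. Mapk11 and Mapk12 are lowest in 67NR, Mapk13 is highest there, and the arrays of Map2k3 overlap between the lines.

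Downstream of p38, Mapkapk3, a kinase activated by p38, was higher in 4T1 (difference 1.41, adjusted p = 7.96e-05) and in 4T07 (2.14, adjusted p = 2.57e-06, limma) than in 67NR. Mef2c, a transcription factor that p38 phosphorylates, was detected only on the 4T1 arrays and was at least 2.59-fold higher there than in 67NR and at least 2.7-fold higher than in 4T07. Mef2c passed the filter only through 4T1, so no p-value is given for it. Dusp10 and Ppm1d, which dampen the cascade, were lower in 4T1 than in 67NR. Dusp10, a phosphatase of p38 and JNK, fell to 7.09, 7.07 and 6.0 in 4T1, against 8.18, 9.01 and 8.55 in 4T07 and 8.87, 8.35 and 8.30 in 67NR (adjusted p = 0.000849 against 4T07 and 0.000467 against 67NR, limma), though not past the threshold against 4T07 by the methods' unpaired test (adjusted p = 0.0602). Ppm1d, the WIP1 phosphatase, was lower in 4T1 (difference -1.75, adjusted p = 1.76e-05) and in 4T07 (-1.48, adjusted p = 7.35e-05, limma) than in 67NR, with -0.26 for 4T1 against 4T07 (adjusted p = 0.349, limma). The array 4T1 replicate 3 lay at least 1 below the other 4T1 arrays for Dusp10, Dusp8 and Zfp36. Dusp8, a phosphatase of JNK and p38, had 9.51, 9.19 and 6.89 in 4T1, and its difference from 67NR was -2.19 (adjusted p = 0.00733) and -1.37 without that array (adjusted p = 0.00729, limma). Without it the p38 cascade, then 26 genes, had 6 higher and 9 lower in 4T1 than in 67NR, 5 higher and 8 lower in 4T07 than in 67NR, and 2 higher and 4 lower in 4T1 than in 4T07. Mef2c, detected on the 4T1 arrays alone, then failed the filter.

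Among 7 other Toll-like receptor and co-receptor genes, 3 were higher and 2 lower in 4T1 than in 67NR, 4 higher and 2 lower in 4T07 than in 67NR, and 3 lower in 4T1 than in 4T07, with none higher there by limma, unadjusted or adjusted, or by the methods' test. Lbp, the lipopolysaccharide-binding protein that loads CD14, had levels of 5.17, 5.18 and 5.41 in 4T1, 8.81, 8.31 and 8.99 in 4T07 and 4.66, 5.06 and 5.15 in 67NR. It thus stood out in 4T07 (difference 3.75 against 67NR, adjusted p = 2.43e-08, and -3.45 for 4T1 against 4T07, adjusted p = 1.73e-07, limma). The flagellin receptor Tlr5 and Unc93b1, the chaperone that brings TLR3 and other receptors to endosomes, were also highest in 4T07 and were detected on no 67NR array. Tlr5 was at least 3.79-fold and Unc93b1 at least 9.23-fold higher in 4T07 than in 67NR. A dimmer probe of Unc93b1 was likewise detected on all 4T07 arrays and on no 67NR array.

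Tlr4, the lipopolysaccharide receptor that works with Cd14 and Ly96, ran the other way. It had 8.50, 8.19 and 8.25 in 4T1, 8.53, 8.45 and 8.29 in 4T07 and 9.46, 9.33 and 9.67 in 67NR. Tlr4 was lower in 4T1 (difference -1.17, adjusted p = 4.25e-05) and in 4T07 (-1.06, adjusted p = 0.000102, limma) than in 67NR, and its second probe gave -1.37 and -1.17. The lowest mean of Tlr4 and of Cd14 thus lay in 4T1 and that of Ly96 in 67NR.

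Of 14 adaptor and receptor-proximal genes, 4 were higher and 2 lower in 4T1 than in 67NR, 7 higher and 2 lower in 4T07 than in 67NR, and 3 higher and 3 lower in 4T1 than in 4T07. In the same order, the methods' unpaired test called 4 higher and 2 lower, 5 higher and 1 lower, and 1 higher and 2 lower. Tirap, which bridges TLR2 and TLR4 to MYD88, was higher in 4T1 (difference 1.73, adjusted p = 6.35e-07) and in 4T07 (0.97, adjusted p = 9.41e-05, limma) than in 67NR. Its other probes gave 1.45, 1.11 and 0.76 for 4T1 and 0.87, 0.23 and 0.20 for 4T07, so that the size in 4T07 depended on the probe. Sigirr, an inhibitory receptor of the same family, was higher by 1.33 in 4T1 (adjusted p = 0.000418) and 1.47 in 4T07 (adjusted p = 0.000222, limma). Tab2 and Tab3, subunits of the TAK1 complex, were higher in 4T1 by 1.06 and 1.45 and in 4T07 by 0.96 and 1.35, all past the threshold. Ticam1, the adaptor that TLR3 uses in place of MYD88, was lower in 4T1 (-1.04, adjusted p = 0.000584) and in 4T07 (-0.58, adjusted p = 0.0227, limma) than in 67NR, and was named after its values were seen as the partner of Tlr3.

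Most of the other cytosolic sensors were higher in 4T07 than in 67NR, as Nod1 was, but unlike Nod1 some were also higher in 4T1 than in 67NR. Of 11 measured, 9 were higher in 4T07 than in 67NR and none lower, also at an unadjusted p of limma, while the methods' test called 7 higher. In 4T1, 4 were higher and 1 lower than in 67NR, and 6 were lower and none higher than in 4T07, where the methods' test called 2 lower. Sting1, the adaptor of cytosolic DNA sensing, was detected on no 67NR array. It was at least 4.96-fold higher in 4T1 and at least 6.55-fold higher in 4T07 than in 67NR. Aim2, a DNA sensor that forms an inflammasome, was detected only in 4T07, with levels of 4.55, 4.57 and 4.80 in 4T1, 7.06, 7.06 and 7.04 in 4T07 and 4.42, 4.40 and 4.53 in 67NR. It was at least 3.77-fold higher in 4T07 than in 67NR and at least 4.01-fold lower in 4T1 than in 4T07. Aim2 passed the filter only through 4T07, so no p-value is given for it.

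**Figure D4:**
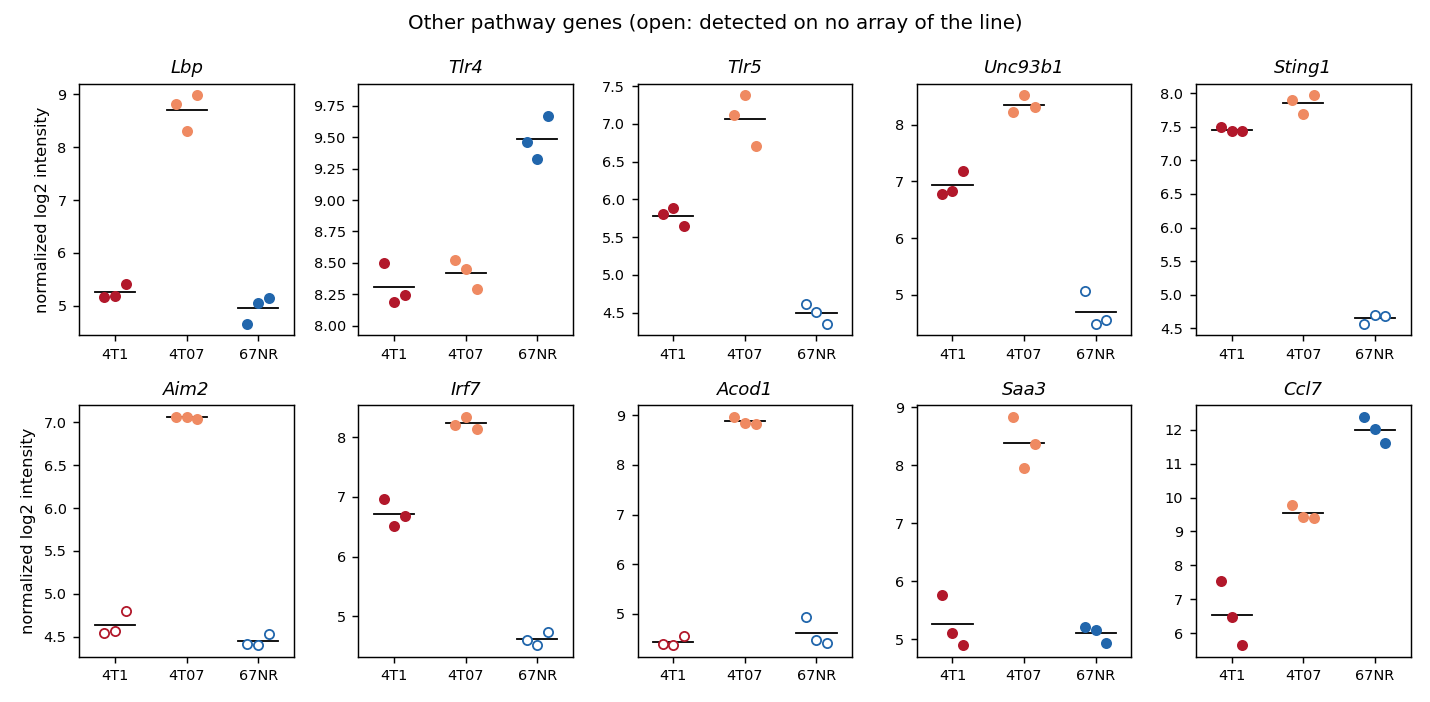
Normalized log2 intensity on each array (points) and line means (lines) of other genes of the pathway in 4T1, 4T07 and 67NR; each panel has its own axis and open points mark a line with no detected array. Lbp, Aim2, Acod1 and Saa3 are high in 4T07 alone, Tlr5, Unc93b1, Sting1 and Irf7 are undetected in 67NR, and Tlr4 and Ccl7 are highest in 67NR.

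Among 21 NF-κB and IRF factors with their kinases and inhibitors, 8 were higher and 3 lower in 4T1 than in 67NR and 6 higher and 3 lower in 4T07 than in 67NR by limma. The methods' unpaired test called 2 higher and 0 lower in 4T1 than in 67NR, and 4 higher and 2 lower in 4T07 than in 67NR. Between 4T1 and 4T07, 3 were lower in 4T1 and none higher by limma, with 1 higher at an unadjusted p under 0.05 and none higher by the methods' test. Irf7, a transcription factor of interferon genes, was detected on no 67NR array. It was at least 2.98-fold higher in 4T1 and at least 8.51-fold higher in 4T07 than in 67NR. Bcl3, an atypical IκB protein, was likewise at least 6.33-fold higher in 4T1 and at least 8.54-fold higher in 4T07. Map3k8, the kinase TPL2, had 7.96, 7.46 and 5.83 in 4T1, 7.90, 8.06 and 7.85 in 4T07 and 9.73, 9.67 and 8.66 in 67NR, and was lower than in 67NR in 4T1 (difference -2.27, adjusted p = 0.00143) and in 4T07 (-1.42, adjusted p = 0.0238, limma). By the methods' unpaired test the first missed the threshold (adjusted p = 0.0775). In this list 4T1 replicate 3 lay at least 1 below the other 4T1 arrays for Map3k8, Nfkbia, Nfkbiz and Tnfaip3. Nfkbia, which encodes IκBα, had 12.72, 12.33 and 10.12 in 4T1, and its difference from 67NR was -1.75 (adjusted p = 0.0176) with the array and -0.95 without it (adjusted p = 0.0184, limma). Without it Nfkbia was also lower in 4T07 than in 67NR (-0.78, adjusted p = 0.0276, against 0.27 with all arrays, limma), and the list had 5 higher and 3 lower in 4T1 than in 67NR.

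The inflammatory target genes did not move as a block. Of 24 measured, 4 were higher and 5 lower in 4T1 than in 67NR, 9 higher and 3 lower in 4T07 than in 67NR, and 2 higher and 8 lower in 4T1 than in 4T07. In the same order, the methods' unpaired test called 3 higher and 3 lower, 8 higher and 3 lower, and 1 higher and 5 lower. For 8 of the 24, Ccl2, Csf2, Csf3, Cxcl1, Cxcl2, Cxcl10, Icam1 and Nos2, 4T1 replicate 3 lay at least 1 below the other 4T1 arrays. Without it, 7 of 23 genes were higher and 5 lower in 4T1 than in 67NR, 10 higher and 5 lower in 4T07 than in 67NR, and 3 higher and 7 lower in 4T1 than in 4T07. The interferon-induced chemokine gene Cxcl10 had 10.15, 10.15 and 7.91 in 4T1, and its difference from 4T07 was -1.51 (adjusted p = 0.0424) with the array and -0.76 without it (adjusted p = 0.066, limma). Acod1, which makes itaconate in activated macrophages, had 4.40, 4.37 and 4.55 in 4T1, 8.97, 8.85 and 8.82 in 4T07 and 4.93, 4.48 and 4.41 in 67NR. It was detected in 4T07 alone, at least 13.3-fold higher than in 67NR, and was at least 14.2-fold lower in 4T1 than in 4T07. Acod1 passed the filter only through 4T07, so no p-value is given for it. Saa3, an acute-phase protein, was also higher in 4T07 than in 67NR (difference 3.29, adjusted p = 7.39e-07) and lower in 4T1 than in 4T07 (-3.13, adjusted p = 3.46e-06, limma).

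Other target genes separated the lines differently. Lcn2, the iron-binding lipocalin, was higher in 4T1 by 5.59 (adjusted p = 1.91e-05) and in 4T07 by 5.28 (adjusted p = 3.39e-05, limma) than in 67NR, where its arrays spread over 9.54, 8.0 and 6.17. The monocyte chemokine gene Ccl7 fell to 7.54, 6.46 and 5.63 in 4T1, against 9.79, 9.43 and 9.41 in 4T07 and 12.39, 12.03 and 11.61 in 67NR, and all of its differences passed (adjusted p = 2.77e-07 for 4T1 against 67NR, 0.000259 for 4T07 against 67NR and 0.000144 for 4T1 against 4T07, limma). Il23a, a subunit of interleukin 23, was highest in 4T1, by 3.22 against 67NR (adjusted p = 1.93e-06) and 1.78 against 4T07 (adjusted p = 0.000646, limma).

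**Figure D5:**
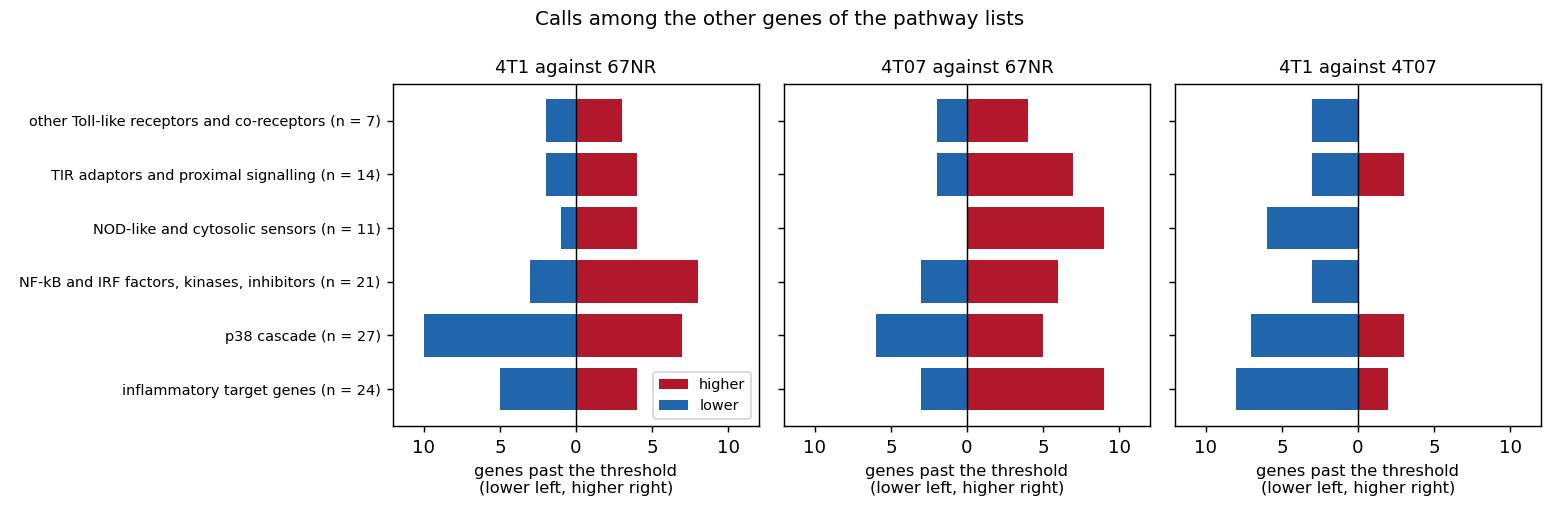
Number of genes of each pathway list past the threshold of limma (adjusted p under 0.05), with lower genes to the left of 0 and higher genes to the right, for 4T1 against 67NR, for 4T07 against 67NR and for 4T1 against 4T07; n is the number of genes tested in a list, and the members are not counted. The cytosolic sensors have 9 higher genes in 4T07 against 67NR, and the p38 cascade has 10 lower genes in 4T1 against 67NR.

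Over all lists, 104 genes besides the members were tested, of 140 listed and 113 with a named probe. Of these, 30 were higher and 23 lower in 4T1 than in 67NR (51%), 40 higher and 16 lower in 4T07 than in 67NR (53.8%), and 8 higher and 30 lower in 4T1 than in 4T07 (36.5%). Over all genes tested, 49.8%, 45.3% and 29.8% were called in the same order. The median differences of the listed genes were 0.06, 0.17 and -0.24, beside -0.05, -0.05 and -0.01 over all genes. Without 4T1 replicate 3, 102 genes were tested, with 30 higher and 22 lower, 41 higher and 21 lower, and 6 higher and 25 lower in the same order. For 4T07 against 67NR the lists held more higher than lower genes, where over all genes 21.9% were higher and 23.4% lower. For 4T1 against 4T07 they held more lower genes, where over all genes 14% were higher and 15.8% lower. The lists were written with earlier results of these data known, so nothing more is read from these counts.

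The genes whose levels over the 9 arrays, centred on their own mean, lay nearest to those of a member were found by the root-mean-square difference. For Tlr2 they were Klk8, Pde4d and Vcam1 (0.40, 0.40 and 0.41), of which Vcam1, an adhesion molecule of the target list, had means of 10.75 in 4T1, 12.73 in 4T07 and 10.10 in 67NR. The genes nearest to Irak2 were Hspb2, Slc38a3 and Dbndd2 (0.14, 0.19 and 0.20), and those nearest to Nod1 were Tmem154, Macroh2a2 and Guca1a (0.15, 0.18 and 0.18). Mapk11 had Gtpbp10, Arhgap27 and Zfp362 nearest (0.15, 0.18 and 0.19), and Map2k6 had Rrbp1, Sh3kbp1 and Vegfd (0.21, 0.22 and 0.22). Cd14 was nearest to Aebp2 (0.08), Ly96 to 4933434E20Rik (0.06), Tlr6 to Fam185a (0.07), Tlr3 to Ssbp3 (0.12) and Myd88 to Zfp653 (0.14). The distances are small for members that vary little, such as Ly96 and Tlr6, and larger for Tlr2, whose arrays spread within 4T1 and 67NR.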

How the data were processed

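Total RNA of 9 samples of sorted tumor cells, 3 each of 4T1, 4T07 and 67NR by the sample titles, was amplified, labeled with biotin and hybridized to Illumina mouse bead arrays. For 45281 probes the authors deposited mean bead intensities, not normalized, with the detection p-value of every probe on every array, as well as log2 values of 22834 probes, whose sorted columns differ by at most 0.000741 and which are thus quantile-normalized. The sources used here give neither the background settings of these log2 values nor the slide of an array, so no slide block was fitted.

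The platform annotation gave 1 gene for 19281 of these probes and several for 10, and 19261 were found by Entrez ID in the reference gene table, with 0 symbols updated. Intensities were corrected and quantile-normalized with neqc (limma 3.58.1, R 4.3.3, offset 16). Probes detected at p under 0.05 on 3 or more arrays were kept (15686), and each of 10021 genes was read from its brightest kept probe. limma (lmFit and eBayes) was fitted over the 9 arrays together and its p-values, adjusted by Benjamini-Hochberg, were called under 0.05 for 4T1 against 67NR, for 4T07 against 67NR and for 4T1 against 4T07. The number of arrays limits the precision, and intensities give no read depth.

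The members, the pathway lists and the marker lists were chosen with earlier results of these data known. All members are named, with up to 4 genes of every list and comparison that passed the threshold without overlap and had the largest differences, the 3 genes nearest to each member, and markers. The choice among these for discussion was made with their values in view, and so was that of Mapk14, Map2k3, Map2k4 and Ticam1, which fall outside that rule. Promoters and neighboring genes are from RefSeq (GRCm38.p6). The alternatives were the authors' deposited log2 values, intensities without background correction, normexp (offset 50), median centring, no filter or a stricter one (detection p under 0.01 on every array of a line), the mean over a gene's kept probes, only the lines of a comparison, a block for the replicate number, the methods' unpaired test, and each array left out.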

Additional observations from a re-analysis of the deposited data

How the results depend on the processing

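Every difference of a member whose arrays did not overlap kept its sign under each alternative that gave a value (18 differences and 316 values, of which 288 moved by less than the larger SD of the lines compared and 28 by more). The stricter filter, and leaving out any 4T1 array, left Tlr3 out. Of the differences with overlap, 3 values turned, which are those of Irak2 and Nod1 given above. Sizes of dim members depend on the background correction: in the authors' deposited values, Map2k6 had -0.76 for 4T1 against 4T07, Nod1 0.78 for 4T07 against 67NR, and Tlr3 0.28 for 4T1 against 67NR, where the line in which the probe was not detected counts at its background signal. With the mean of all kept probes, Irak2 had -0.82 for 4T1 against 4T07. The bounds of other genes also rest on the processing. Over the alternatives that kept every array, the lowest difference for 4T1 against 67NR was 1.94 for Mapk12, 1.16 for Sting1 and 0.79 for Irf7.

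The number of members without overlap ranged from 3 to 6 for 4T1 against 67NR, 7 to 8 for 4T07 against 67NR and 6 to 9 for 4T1 against 4T07 when an array was left out. Calls among the pathway genes then ranged from 48 to 55, 41 to 62 and 28 to 39, and calls among all genes from 4216 to 5168, 3741 to 4504 and 2143 to 3045. The methods' unpaired test called 34 pathway genes in place of 53 for 4T1 against 67NR, 17 in place of 38 for 4T1 against 4T07 and 1835 genes in place of 2985 over all genes for 4T1 against 4T07, and it has no estimate of spread shared between genes. Of 70 named differences of other genes, 58 kept their call under all alternatives, 27 of 1315 values lost it and 0 turned.

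Deviations of arrays with the same replicate number correlated at -0.17 to 0.15 and those of arrays with different numbers at -0.17 to 0.21. Between 4T1 and 67NR the arrays with the same number gave 0.05, 0.15 and 0.13, and those with different numbers were all negative. Whether the numbers pair the arrays is thus not settled. With the number as a replicate block, limma called 4938, 4466 and 2855 genes for the same comparisons, 53, 55 and 35 of them in the pathway lists. Each line had 3 arrays, so a small difference between lines may pass unseen.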
